A study of Arabidopsis thaliana with 18 samples.

Results

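The plastid genome of Arabidopsis thaliana keeps a small set of protein-coding genes, and 69 of them were followed here through seedling establishment in the wild type and in 2 mutants that lack tocopherols. A gene was taken where a probe set of the ATH1 array named 1 plastid gene and no other, and each of the 69 genes had 1 such probe set. They were 69 of the 78 plastid gene symbols (84 entries) in the gene table used for names. Of these, 43 encode subunits of photosynthetic complexes (psa, psb, pet, atp and ndh genes and rbcL). Another 19 serve gene expression, as ribosomal proteins (rpl and rps genes) or as subunits of RNA polymerase (rpo genes). The other 7 were accD, ccsA, cemA, clpP, matK, ycf3 and ycf4. Probe sets of 7 further symbols (rps12, rpl2, rpl23, ycf2, ndhB, rps7 and ycf1) name several gene entries. Of the 69 genes, 68 passed the filter on dim probe sets; ndhF did not, so that its values are given without a test.

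Seedlings of wild-type Columbia-0 (WT) and of the mutants vte1-1 and vte2-1 in the Columbia-0 background, called vte1 and vte2 here, were collected at an age of 1 day or 3 days. Age was counted at 22 °C, after 5 days at 6 °C, and all plants grew on plates of Murashige and Skoog medium under a 12-hour photoperiod. Each of the 6 groups had 3 biological replicates, each RNA coming from about 100 mg of seedlings, which gave 18 arrays. Whether a replicate number stands for a shared sowing is not stated in the labels. VTE2 attaches the phytyl tail to homogentisate at the start of tocopherol synthesis, and VTE1 closes the ring at a later step, so that vte1 still makes the quinone that VTE1 would use. Both enzymes work in the plastid.

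Plastids descend from cyanobacteria and have kept genes for the cores of the photosynthetic machinery and for part of the apparatus that reads them. Their genes are read by RNA polymerases of separate kinds. One is a bacterial-type enzyme whose core subunits are encoded by rpoA, rpoB, rpoC1 and rpoC2 in the plastid itself, and whose sigma factors come from the nucleus. The other is a single-subunit, phage-type enzyme of the nucleus, which reads the rpoB operon and several other housekeeping genes. In a germinating seedling the plastids grow, divide and, in the light, build thylakoids, and genes of the photosystems are known as main targets of the bacterial-type enzyme. Many plastid genes lie in operons and are transcribed together, so that operon mates are not independent measurements.

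The values are deposited array signals on a linear scale, listed below in the order of replicates 1, 2 and 3, and changes are differences of log2(signal + 22) from 1 limma fit over 15922 probe sets. A change is called where the Benjamini-Hochberg adjusted p is below 0.05. Signals compare arrays for 1 probe set and give no order of abundance between genes. Median signal per array was 122 to 161 at day 1 and 164 to 181 at day 3. In all 6 groups replicate 3 had the lowest log2 ratios of 3' to 5' signal, for GAPDH (-0.62 to 1.13 over the arrays) and for actin (2.70 to 5.36). The 3' signal of actin was thus above its 5' signal on every array. Replicate 3 also had the highest signal of the 25S rRNA control probe set in each group (160 to 10156 over the arrays). For each replicate number of each genotype the 25S signal was lower at day 3 than at day 1. The part of these measures in the day changes was not tested. The labels do not name the primer used for labelling, which bears on plastid messages, since these carry no stable poly(A) tail. In RNA of seedlings, fewer plastids and less RNA per plastid cannot be told apart.

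In WT the photosynthetic genes rose together from day 1 to day 3, while most ribosomal protein and polymerase genes did not pass the test. Of the 42 photosynthetic genes tested, 39 rose and 0 fell, with a median change of 1.78 over all 43. Of the 19 rpl, rps and rpo genes, 2 rose (rps14 and rps4) and 1 fell (rpoC1), with a median of 0.27. Of the other 7, 4 rose (accD, ccsA, cemA and ycf4), with a median of 1.24. Among all probe sets tested, 24.6% were called higher and 22.8% lower, with a median of 0.08. That median moved by -0.16 under quantile normalization and by -0.26 with arrays centred on their median, and the photosynthetic median was 1.62 and 1.53 under these scalings. The rpl, rps and rpo median was 0.30 and 0.019, and with median centring 1 of these genes was higher and 2 were lower. The heat map of the 69 genes shows the block of photosynthetic genes turning from low to high between the days.

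**Figure D1:**
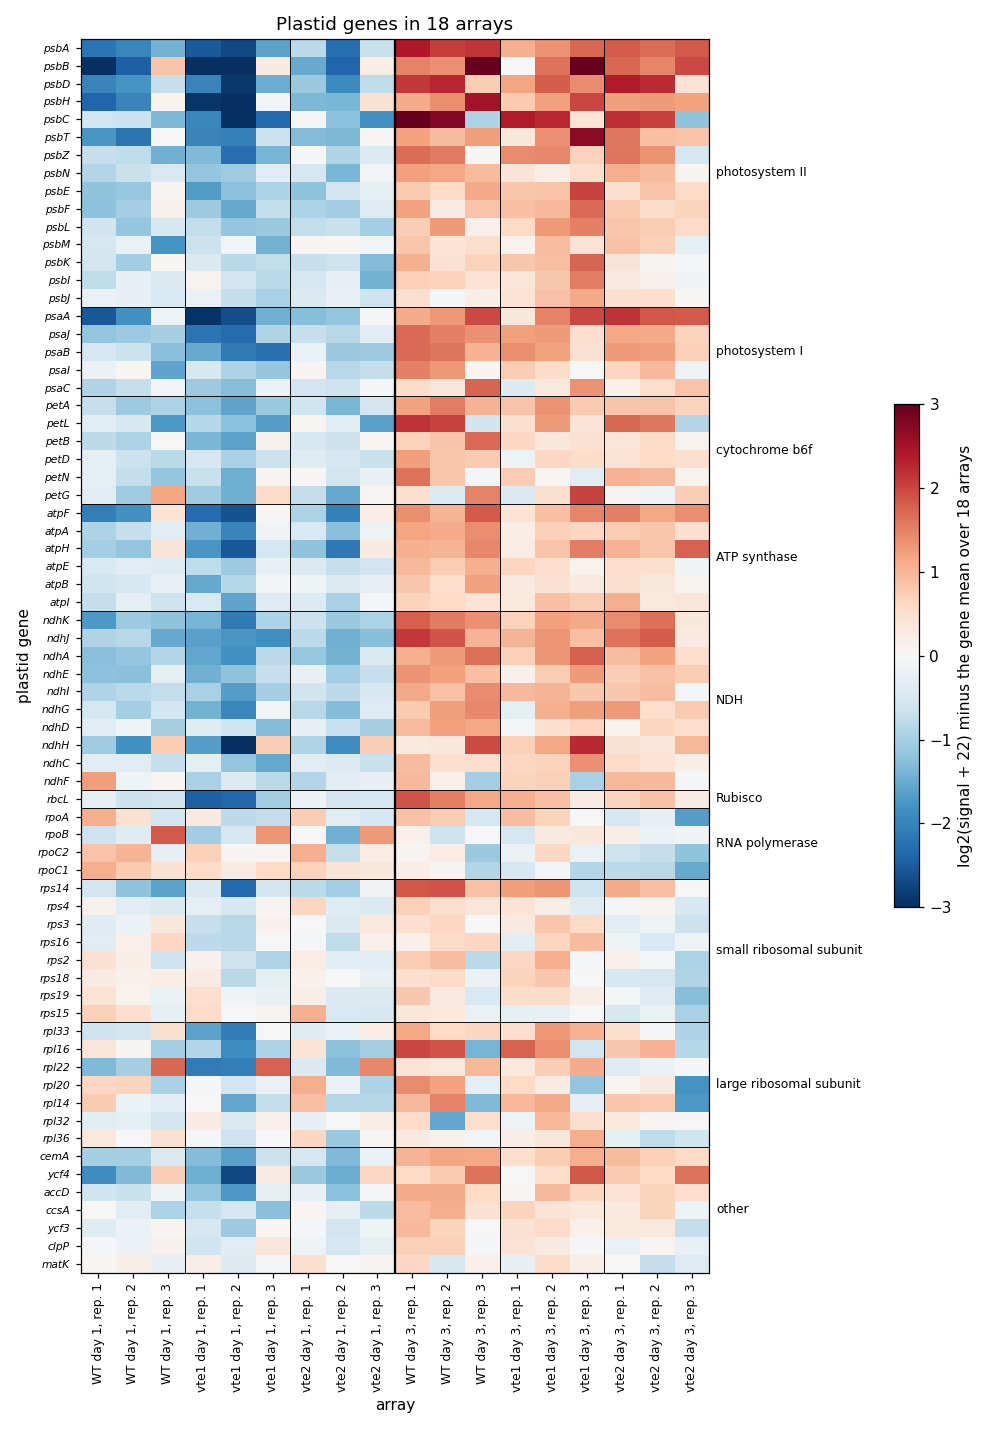
Each row is 1 of the 69 plastid genes, grouped by complex, and each column 1 of the 18 arrays, with day 1 left and day 3 right of the heavy line. Colour gives log2(signal + 22) minus the mean of that gene over the 18 arrays: blue is below and red above that mean, and colours do not deepen beyond 3 either way. Most photosynthetic genes are blue at day 1 and red at day 3, while rpoC1 runs from red to blue and the ribosomal protein genes have no uniform order.

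Photosystem II, which takes electrons from water, held the genes that rose most in WT: 14 of its 15 genes rose, with changes from 0.52 (psbJ) to 4.05 (psbA). psbA, the gene of the D1 reaction centre protein, read 407, 485 and 712 at day 1 and 10229, 8241 and 8565 at day 3. Every day 3 value lay above every day 1 value, the mean signal was 16.9-fold higher, and the change was 4.05 ± 0.35 (SE; adjusted p = 3.7e-08). psbD, the gene of the partner protein D2, read 208, 249.6 and 553 at day 1 and 4027, 4516 and 1554 at day 3, a change of 3.22 ± 0.51 (SE; adjusted p = 4.3e-05). In replicate 3 the step of psbD between the days was the smallest of the 3, and the groups did not overlap. psbB encodes the inner antenna protein CP47 and changed by 3.53 ± 1.06 (SE; adjusted p = 0.0098); psbH, a small subunit from the same operon, changed by 3.08 ± 0.71 (SE; adjusted p = 0.0015). The psbB values were 98.4, 158 and 1748 at day 1 and 2733, 2492 and 8573 at day 3, so that replicate 3 stood far above its group on both days. psbC, the gene of the inner antenna protein CP43, read 2427, 2315 and 1419.6 and then 29453, 25135 and 1918. Here replicate 3 of day 3 lay near the day 1 values and the groups overlapped, although the change of 2.48 ± 0.90 (SE; adjusted p = 0.029) was called. Leaving out any 1 WT array other than replicate 3 of day 3 ended the call of psbC (adjusted p = 0.051 to 0.15), and that of psbB ended without replicate 1 of day 1 or replicate 3 of day 3 (adjusted p = 0.062 and 0.051). psbJ, a small subunit, was the only photosystem II gene not called in WT, at 0.52 ± 0.24 (SE; adjusted p = 0.089).

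All 5 photosystem I genes measured rose in WT, by 1.45 (psaC) to 2.97 (psaA). psaA and psaB encode the paired large proteins of the photosystem I reaction centre. psaA read 317, 534 and 1748 at day 1 and 4226, 4817 and 7818 at day 3 and changed by 2.97 ± 0.52 (SE; adjusted p = 1.2e-04). psaB read 8318, 7565 and 4940.1 at day 1 and 38279, 35591 and 24238 at day 3 and changed by 2.24 ± 0.30 (SE; adjusted p = 7.8e-06). Neither gene's groups overlapped. rbcL, which encodes the large subunit of the carbon-fixing enzyme Rubisco, read 1762, 1353 and 1397 at day 1 and 7920, 6142 and 4839 at day 3, and its change was 2.03 ± 0.32 (SE; adjusted p = 3.7e-05). The lowest rbcL value of day 3 was above the highest of day 1.

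Of the 6 genes of the cytochrome b6f complex, which passes electrons between the photosystems, 5 rose in WT. petA, the gene of cytochrome f, read 3028, 2286 and 2548 at day 1 and 11307, 14219.6 and 10072 at day 3, a change of 2.16 ± 0.23 (SE; adjusted p = 4.9e-07). petB, the gene of cytochrome b6, read 11362, 10172 and 19515 and then 31708, 35495 and 63933, a change of 1.66 ± 0.36 (SE; adjusted p = 9.8e-04). The day 3 values of both genes lay wholly above those of day 1, while the small subunit petG was not called (0.57 ± 0.67, SE; adjusted p = 0.51). All 6 ATP synthase genes rose, by 1.10 (atpI) to 2.57 (atpF). atpB, which encodes the catalytic beta subunit, read 19522, 21419 and 25347 at day 1 and 52056, 43029 and 69249 at day 3 (1.29 ± 0.26, SE; adjusted p = 5.1e-04), and its groups did not overlap. The ndh genes encode a thylakoid complex that returns electrons from photosystem I to the plastoquinone pool, and 8 of the 9 tested rose, led by ndhK at 2.92 ± 0.33 (SE; adjusted p = 1.0e-06). ndhH was not called, at 1.56 ± 0.84 (SE; adjusted p = 0.13), and the untested ndhF read 94.4, 22.5 and 28.6 at day 1 and 74.3, 32.4 and 2.20 at day 3, with overlapping groups.

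Of the 4 genes of the plastid's own RNA polymerase, 1 was called in WT. rpoC1 read 7888, 6336 and 5060 at day 1 and 4219, 3921 and 1981 at day 3 in WT. All day 3 values were below all day 1 values, and rpoC1 fell by 0.98 ± 0.28 on the log2 scale (SE; adjusted p = 0.0083). Without replicate 3 of day 3 the adjusted p was 0.065. Its operon mates rpoB and rpoC2 were not called, with changes of -0.44 ± 0.66 (SE; adjusted p = 0.62) and -0.81 ± 0.43 (SE; adjusted p = 0.13). The rpoB signals of 118, 146 and 745 at day 1 had replicate 3 far above the other arrays. rpoA, which encodes the alpha subunit from another operon, read 7906, 5144 and 2554 and then 6934, 6365 and 2574, with overlapping groups and a change of 0.04 ± 0.47 (SE; adjusted p = 0.95).

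Among the ribosomal protein genes in WT, 2 of the 8 of the small subunit and 0 of the 7 of the large subunit were called in the limma fit. At an unadjusted level the same fit put 49 of the 68 tested plastid genes below 0.05, beside 53.6% of all probe sets. rps14 read 58.7, 29.2 and 16.6 at day 1 and 408, 412 and 193 at day 3, and changed by 2.66 ± 0.55 (SE; adjusted p = 5.7e-04). rps4 read 15148, 10994 and 10171 at day 1 and 22818, 19953 and 17782 at day 3, and changed by 0.75 ± 0.27 (SE; adjusted p = 0.031). Neither gene's groups overlapped, and the lowest day 1 signal of rps14 was below the 20th percentile of all signals (21.8), so that it was dim at day 1. The call of rps4 ended with arrays centred on their median (adjusted p = 0.17) and without replicate 2 or 3 of day 1 or replicate 1 or 2 of day 3 (adjusted p = 0.064 to 0.10). The large subunit genes ran from -0.15 (rpl36) to 1.03 (rpl33), all with adjusted p above the threshold. Of the remaining genes, accD, for the plastid-encoded subunit of acetyl-CoA carboxylase, read 991, 952 and 1400.2 and then 3319.9, 3321 and 2293 (1.40 ± 0.35, SE; adjusted p = 0.0025). clpP, for the proteolytic subunit of the Clp protease, changed by 0.49 ± 0.24 (SE; adjusted p = 0.11), and matK, for the intron maturase, by 0.10 ± 0.28 (SE; adjusted p = 0.79). The clpP and matK groups overlapped. cemA, for a protein of the inner envelope, ccsA, for a factor of cytochrome c assembly, and ycf4, for a factor of photosystem I assembly, were called at 1.92, 1.24 and 1.82; the call of ycf4 ended without any 1 WT array other than replicate 3 of day 1 (adjusted p = 0.056 to 0.20). ycf3, another photosystem I assembly factor, was not called (0.72 ± 0.32, SE; adjusted p = 0.076).

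**Figure D2:**
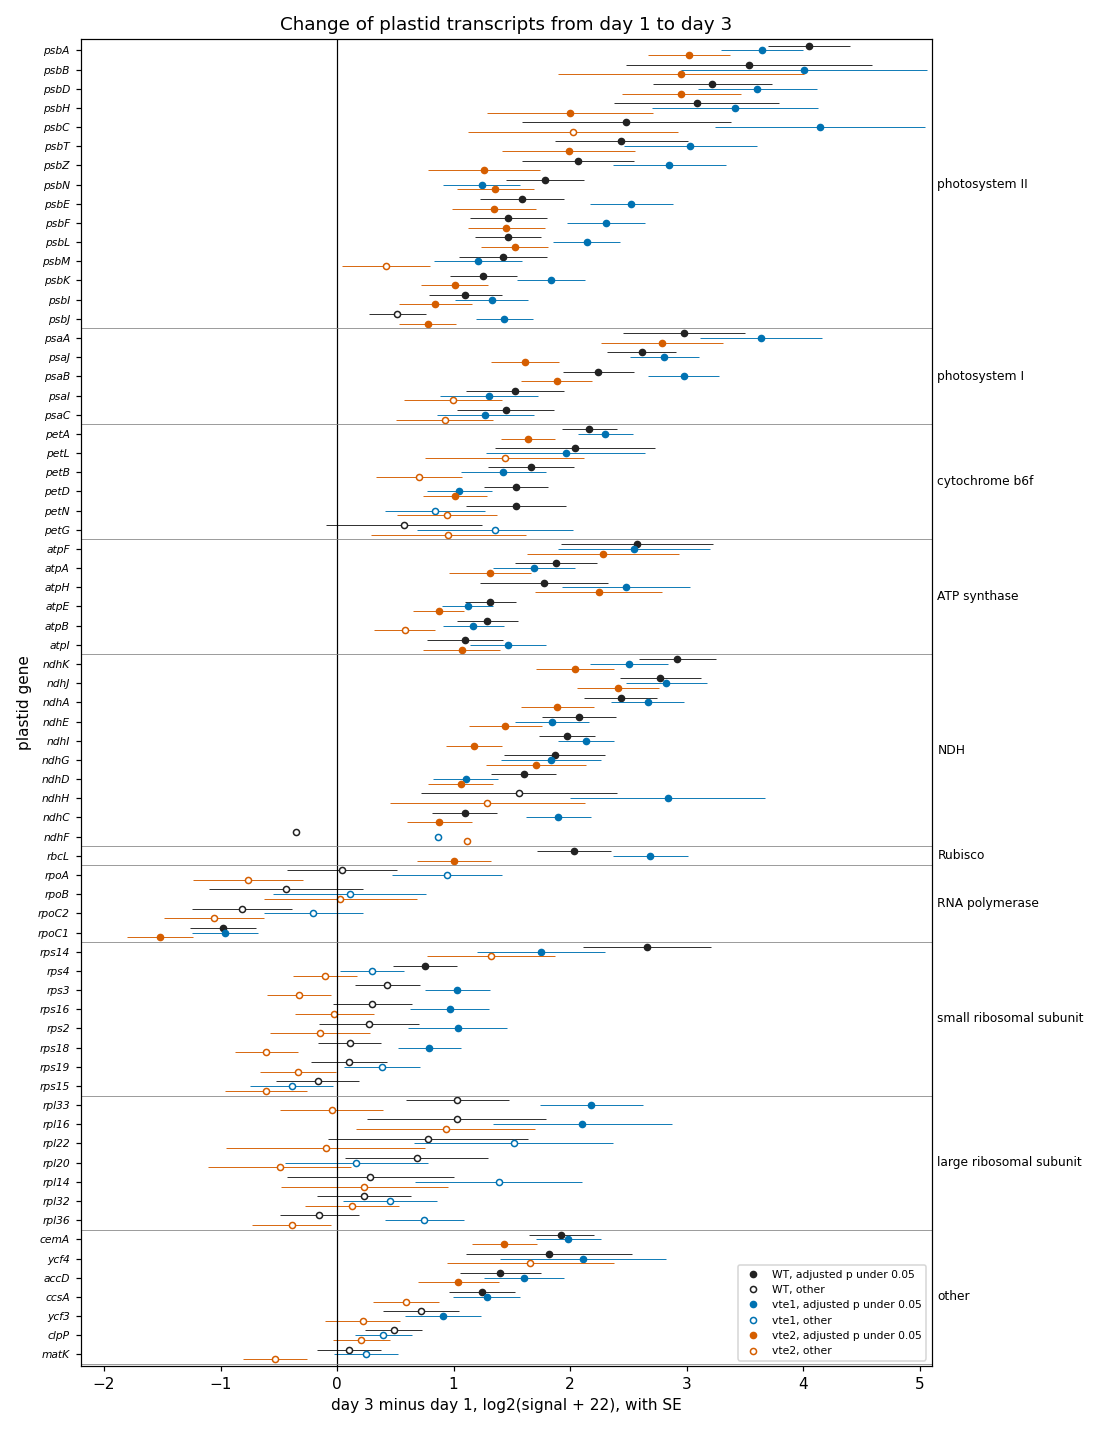
Points give the day 3 minus day 1 change of each plastid gene on the log2(signal + 22) scale with its SE, in WT (black), vte1 (blue) and vte2 (orange), and filled points have an adjusted p below 0.05. Within each complex genes run from the largest to the smallest WT change. Filled points fill most of the photosynthetic rows, while in the RNA polymerase rows only rpoC1 is filled, left of 0; ndhF has no SE because it was not tested.

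In the mutants, too, most photosynthetic genes rose between the days. In vte1, 40 of 42 photosynthetic genes rose and 0 fell (median 2.14), and 7 of 19 rpl, rps and rpo genes rose and 1 fell (median 0.79), against 30% higher and 23.4% lower among all probe sets tested. In vte2, 32 of 42 photosynthetic genes rose and 0 fell (median 1.35), and 0 of 19 rpl, rps and rpo genes rose and 1 fell (median -0.15), against 21.7% and 18.5%. Over the 3 genotypes, 31 of the 42 tested photosynthetic genes rose in every genotype, and 0 of 19 rpl, rps and rpo genes did. The share of all probe sets that rose in every genotype was not counted, and it cannot exceed the 21.7% of vte2. rpoC1 fell in all 3, and in these fits no other plastid gene was called lower. Its call was lost in WT without replicate 1 or replicate 2 in every group (adjusted p = 0.067 and 0.052) and in vte1 without replicate 1 (0.087). In vte2, 2 rpl, rps and rpo genes were lower with quantile normalization and 3 with arrays centred on their median; with that centring the higher ones in vte1 numbered 3. As a description over the 69 genes, which share arrays and operons, the day change of WT correlated with that of vte1 (Pearson r = 0.87, Spearman rho = 0.85) and of vte2 (r = 0.91, rho = 0.90); that of vte1 correlated with that of vte2 (r = 0.88, rho = 0.86). Without replicate 1, 2 or 3 in every group, the photosynthetic genes called higher numbered 26, 30 and 40 (WT), 34, 30 and 42 (vte1) and 14, 12 and 42 (vte2). The rpl, rps and rpo genes called higher then numbered 2, 2 and 7 (WT), 2, 0 and 12 (vte1) and 0, 0 and 3 (vte2). Among all probe sets the shares called higher were 15.7%, 15.3% and 30.2% (WT), 20.6%, 19.9% and 35.9% (vte1) and 12.1%, 11.1% and 29.3% (vte2).

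The genes that rose most in vte1 were psbC (4.14), psbB (4.0), psbA (3.64), psaA (3.64), psbD (3.61) and psbH (3.41). psbA read 321, 278 and 624 in vte1 at day 1 and 4046, 4919 and 6399 at day 3. psbC read 919, 414 and 709 and then 18939, 17654 and 4868, and here too replicate 3 was the lowest at day 3 while the groups did not overlap. In vte2 the order was psbA (3.02), psbB (2.95), psbD (2.95), psaA (2.79), ndhJ (2.41) and atpF (2.28), where ndhJ belongs to the NDH complex and atpF to the membrane part of ATP synthase. psbA read 1101, 387 and 1215 in vte2 at day 1 and 6856, 6239.5 and 6981 at day 3; replicate 2 was the lowest at day 1 and all day 3 values were higher than all of day 1. rpoC1 in vte1 went from 5412, 4395 and 5609 to 2579, 3467 and 1989 (-0.96 ± 0.28, SE; adjusted p = 0.0079). In vte2 it went from 5938, 4878 and 4677 to 2133, 2055 and 1278 (-1.52 ± 0.28, SE; adjusted p = 3.1e-04), and in both mutants every day 3 value was below every day 1 value.

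By complex, the mutants differed in how many members passed the test, though such counts are no test of a difference between genotypes. In vte1, 15 of 15 photosystem II genes rose (median 2.52), 5 of 5 photosystem I genes (2.81), 4 of 6 cytochrome b6f genes (1.39), 6 of 6 ATP synthase genes (1.58) and 9 of the 9 tested NDH genes (2.02). In vte2, 13 of 15 photosystem II genes rose (median 1.45), 3 of 5 photosystem I genes (1.61), 2 of 6 cytochrome b6f genes (0.98), 5 of 6 ATP synthase genes (1.19) and 8 of the 9 tested NDH genes (1.37). rbcL changed by 2.69 ± 0.32 (SE; adjusted p = 1.1e-06) in vte1, where its day 1 signals were the lowest, and by 1.01 ± 0.32 (SE; adjusted p = 0.017) in vte2. On the side of gene expression, in vte1 5 of 8 genes of the small and 2 of 7 of the large ribosomal subunit rose (medians 0.88 and 1.39), and 0 of 4 RNA polymerase genes did (median -0.05). In vte2, 0 of 8 genes of the small and 0 of 7 of the large ribosomal subunit rose (medians -0.24 and -0.05), and 0 of 4 RNA polymerase genes did (median -0.91).

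Of the plastid genes, 55 lie in 15 operons with at least 2 measured members, and 3 of these operons mix photosynthetic with ribosomal protein genes. In psaA-psaB-rps14 the ribosomal gene moved with its neighbours in WT: rps14 changed by 2.66 (WT), 1.75 (vte1) and 1.32 (vte2), beside psaB at 2.24 (WT), 2.97 (vte1) and 1.88 (vte2). The rise of rps14 was called in WT and vte1, not in vte2. In psaJ-rpl33-rps18 the WT change was smaller with each gene along the operon. psaJ, a small photosystem I subunit, changed by 2.61 (WT), 2.81 (vte1) and 1.61 (vte2), all called. rpl33 changed by 1.03 (WT), 2.18 (vte1) and -0.05 (vte2) and rps18 by 0.11 (WT), 0.79 (vte1) and -0.61 (vte2), and for both of these the vte1 rise alone was called. In the operon rps2-atpI-atpH-atpF-atpA, rps2 changed by 0.27 (WT), 1.03 (vte1) and -0.15 (vte2), called in vte1 alone, while all 4 atp genes rose in every genotype. The operon of rpoA and the ribosomal protein genes ran in WT from -0.15 (rpl36) to 1.03 (rpl16) with no member called. Whether mates of 1 operon differed from each other was not tested.

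**Figure D3:**
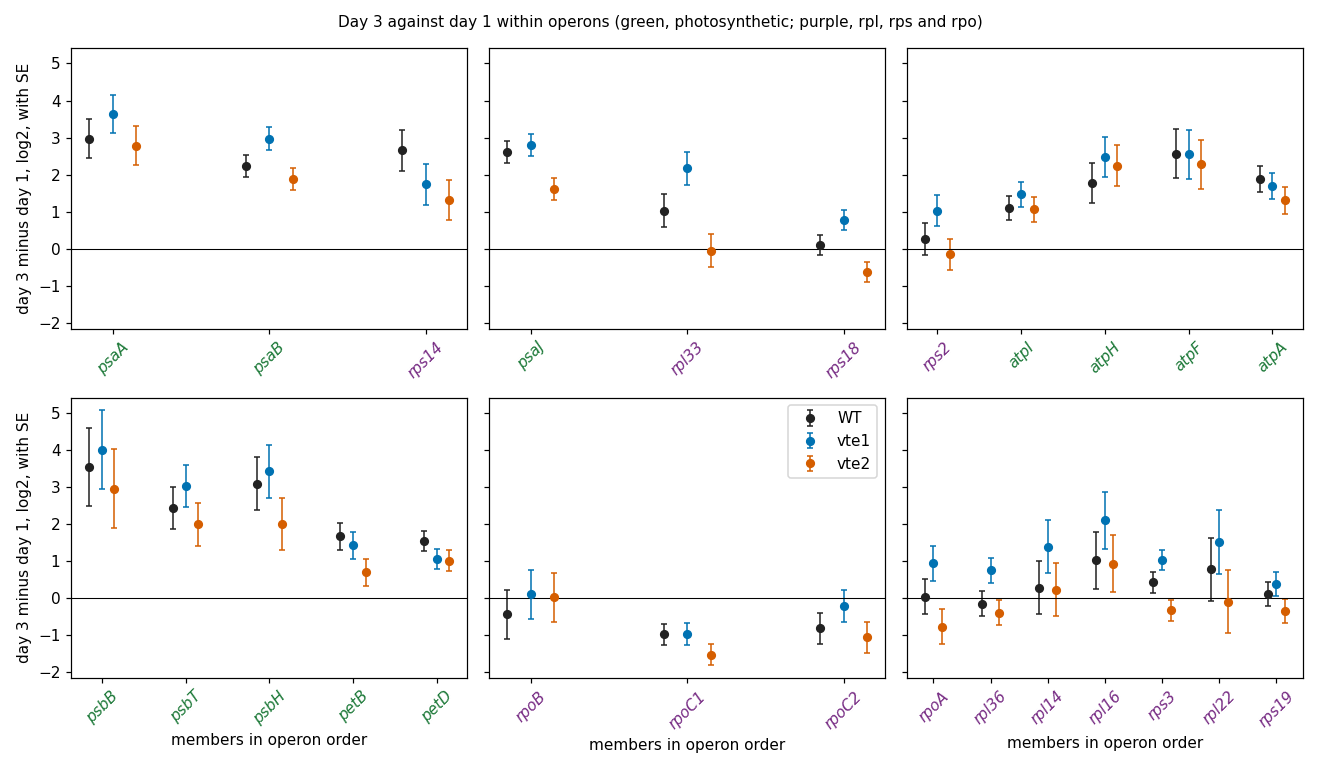
Panels show the day 3 minus day 1 change with its SE for the measured genes of 6 operons, in operon order, in WT (black), vte1 (blue) and vte2 (orange); gene names in green are photosynthetic and in purple rpl, rps or rpo. In psaJ-rpl33-rps18 the points step down from psaJ to rps18, rps14 sits beside psaA and psaB, and the rpoB operon lies near or below 0.

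The same contrast can be read array by array, as the mean log2(signal + 22) of the 43 photosynthetic genes minus that of the 19 rpl, rps and rpo genes. The level of this difference depends on the probe sets, so only its shift between arrays is of use. In WT it was -1.28, -1.15 and -0.68 at day 1 and 0.32, 0.32 and 0.98 at day 3. In vte1 it went from -1.33, -1.05 and -0.96 to 0.02, 0.10 and 0.79. In vte2 it went from -1.11, -0.66 and -0.60 to 0.80, 0.81 and 1.09. No day 3 array of any genotype reached down to a day 1 array, and replicate 3 had the highest value of its group in all 6 groups. The photosynthetic mean itself went from 10.02 ± 0.24 (SD, n = 3) to 11.92 ± 0.12 in WT, while the rpl, rps and rpo mean went from 11.05 ± 0.10 to 11.38 ± 0.47. In vte1 the latter mean was 10.64 ± 0.43 at day 1 and 11.39 ± 0.29 at day 3, with every day 3 array above every day 1 array. In vte2 it was 10.91 ± 0.44 at day 1 and 10.70 ± 0.45 at day 3. The genes were chosen with results of these data known, and no p is given for these means.

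**Figure D4:**
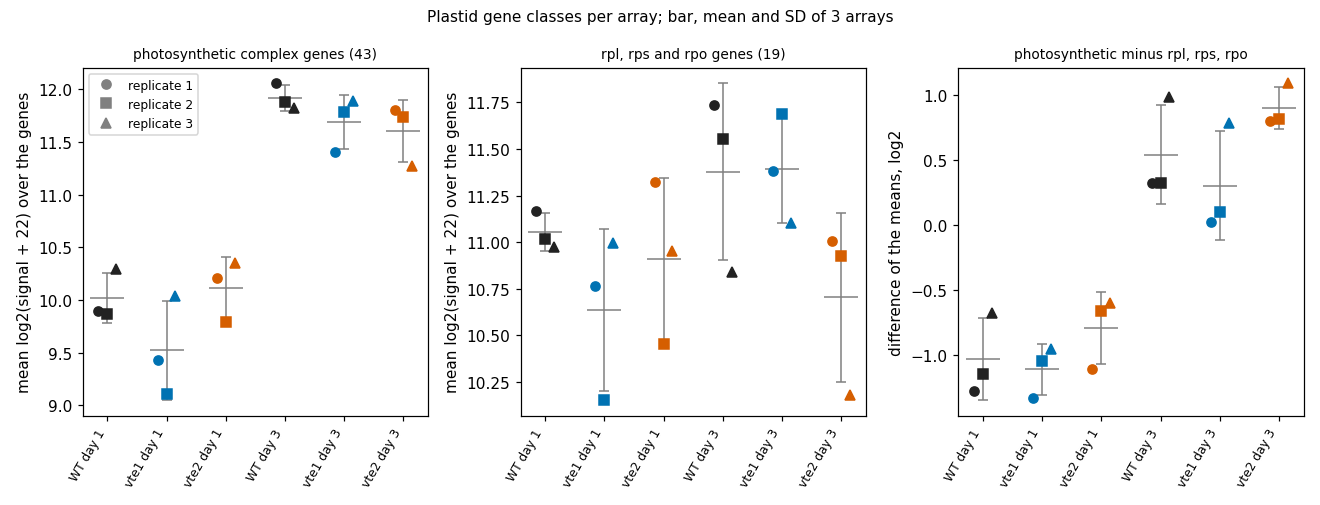
The vertical axes give the mean log2(signal + 22) over the 43 photosynthetic genes (left), over the 19 rpl, rps and rpo genes (middle) and their difference (right), per array, with the mean and SD of the 3 arrays of each group as grey bars. Circles, squares and triangles are replicates 1, 2 and 3; the axes do not start at 0. The left and right panels separate day 3 from day 1 in all genotypes, while the middle panel separates the days in vte1 but not in WT or vte2.

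At day 1, vte1 had lower plastid signals than WT for most genes, but only rbcL passed the test. The change was below 0 for 64 of 69 genes, with medians of -0.41 for photosynthetic genes and -0.40 for rpl, rps and rpo genes, against -0.0044 over all probe sets tested. rbcL read 1762, 1353 and 1397 in WT and 377, 404 and 1030.3 in vte1. Replicate 3 of vte1 lay closest to WT, the groups did not overlap, and the difference of -1.43 ± 0.32 (SE; adjusted p = 0.021) was the only one called. This was 1 of 68 tested plastid genes, near the 1.89% of all probe sets called lower. At an unadjusted p under 0.05 in limma there were 4 of 68, beside 11.5% of all probe sets. Same-numbered arrays of both genotypes deviated together at day 1, and with the replicate number as a block within each day 5 genes were lower (3.81% of all). They were rbcL (adjusted p = 0.0025), psaB (-1.16, adjusted p = 4.0e-04), psbC (-1.59, adjusted p = 0.0093), atpH, for the ring subunit of ATP synthase (-1.01, adjusted p = 0.0064) and rpoA (-0.75, adjusted p = 0.037). Without any 1 of the WT arrays, or without replicate 1 or 2 of vte1, rbcL was no longer called (adjusted p = 0.054 to 0.15), and without replicate 3 in every group 18 plastid genes were lower, beside 9.14% of all probe sets. Without replicate 1 or replicate 2 in every group the number was 0, and of all probe sets tested 0 were called in either direction. The root hair expansin EXPA7, a marker of another tissue, was also lower in vte1, at -2.93 ± 0.65 (SE; adjusted p = 0.020), with signals of 781, 456 and 662 in WT and 18.3, 33.2 and 245 in vte1; its part in the plastid values was not tested.

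For vte2 against WT at day 1, 0 plastid genes were called by limma (1 of 68 at an unadjusted p under 0.05, beside 3.21% of all probe sets, and 0 with either replicate block), where 0.0942% of all probe sets were called. Signs were split, 38 above and 31 below 0, with medians of 0.07 for photosynthetic genes and -0.28 for rpl, rps and rpo genes. Set directly against vte1, vte2 was higher for 3 of the 68 tested plastid genes, a share near the 4.13% of all probe sets that were higher. At an unadjusted p under 0.05 in limma there were 9 of 68, beside 17.1% of all probe sets. The 3 genes, all of photosynthetic complexes, were rbcL, psaB and psaJ. rbcL read 1902, 1458 and 1509 in vte2, a difference from vte1 of 1.54 ± 0.32 (SE; adjusted p = 0.0067). psaB read 4118, 2682 and 2477 in vte1 and 10243, 5402 and 5536 in vte2 (1.16 ± 0.30, SE; adjusted p = 0.032). psaJ read 2400.1, 2199.6 and 5858 in vte1 and 6810.3, 6151 and 8647 in vte2 (1.18 ± 0.29, SE; adjusted p = 0.023), with replicate 3 the highest of both groups. None of the 3 had overlapping groups. With the replicate block within each day, 9 genes were higher (7.51% of all), adding psbA, psbC, psbZ, psbH, psaA and rpl33, with differences of 1.03 to 1.52. Leaving out replicate 1 of vte1 ended the calls of rbcL and psaJ, leaving out its replicate 3 that of psaB, leaving out replicate 1 of vte2 those of psaB and psaJ and leaving out its replicate 3 that of psaJ (adjusted p = 0.054 to 0.16). Leaving out replicate 2 of vte1 ended the calls of all 3 genes (adjusted p = 0.053 for rbcL, 0.14 for psaB and 0.16 for psaJ). Without replicate 3 in every group, 21 plastid genes were higher in vte2, beside 11.8% of all probe sets. Without replicate 1 or replicate 2 the plastid number was 0, beside 0.572% and 0.289% of all probe sets. The root hair markers EXPA7 and EXPA18 and the chlorophyll synthesis gene PORB were higher in vte2 than in vte1 too, at 3.01 ± 0.65 (SE; adjusted p = 0.0085), 2.56 ± 0.66 (SE; adjusted p = 0.028) and 2.67 ± 0.74 (SE; adjusted p = 0.040), and their part was not tested. In vte2 EXPA7 read 281.5, 413 and 2313 and EXPA18 155, 197.5 and 2447, with replicate 3 far above the other arrays for both. Neither overlapped with vte1. PORB, which acts in the light-dependent step of chlorophyll synthesis, had day 1 signals of 655, 778 and 5529.5 in vte1 against 9897, 11181 and 6965 in vte2, so that replicate 3 of vte1 was the nearest to vte2, as it was for psaJ.

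At day 3, vte2 had lower signals than WT for 62 of 69 plastid genes, but 0 were called by limma (12 of 68 at an unadjusted p under 0.05, beside 13.4% of all probe sets), where 0.59% of all probe sets were called lower. Medians were -0.39 for photosynthetic genes and -0.72 for rpl, rps and rpo genes, against 0.0026 over all probe sets. For 21 genes all 3 vte2 values lay below all 3 WT values, which held for 9.48% of all probe sets. Among photosynthetic genes the differences were -0.42 for psbA, -0.05 for psbD, 0.49 for psaA, -0.36 for psaB, -0.47 for petA, -0.73 for petB, -0.54 for atpB and -0.92 for rbcL, with adjusted p from 0.17 to 0.99. In the gene expression class they were -1.17 for rpoA, 0.13 for rpoB, -0.84 for rpoC1 and -0.69 for rps4 (adjusted p from 0.15 to 0.97), and they were -0.41 for accD, -0.58 for clpP and -0.46 for matK in the rest. The untested ndhF read 74.3, 32.4 and 2.20 in WT and 74.8, 74.2 and 24.4 in vte2.

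Same-numbered arrays of WT and vte2 deviated together at day 3 as well. With the replicate block within each day, 8 genes were lower in vte2 (1.65% of all probe sets), and with 1 block over both days 5 were (0.886%). The 8 held 6 gene expression genes. rpoC1 read 4219, 3921 and 1981 in WT and 2133, 2055 and 1278 in vte2 (-0.84, adjusted p = 0.0094 with the block and 0.15 without). rpoA read 2639.5, 3157 and 1177 in vte2 (-1.17, adjusted p = 0.0019 and 0.26), with replicate 3 the lowest in both genotypes. rps18, for a protein of the small ribosomal subunit, read 3306, 3469.7 and 2049 in WT and 1616, 1634 and 1248 in vte2 (-0.93, adjusted p = 0.0068 and 0.081). For rps18 all vte2 values were below all WT values, which for rpoC1 and rpoA was not so. The others were rps3 (-0.74), rps19 (-0.77), rpl20 (-1.28), rbcL and the NDH subunit gene ndhD (-0.69). Without replicate 3 in every group and with no block, 10 plastid genes were lower, 7 of them rpl, rps or rpo genes, beside 2.87% of all probe sets. Without replicate 1 or replicate 2 the number was 0, where 1 and 0 of all probe sets tested were called lower.

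For vte1 against WT at day 3, 0 plastid genes were called (7 of 68 at an unadjusted p under 0.05 in limma, beside 10.4% of all probe sets), where 0.232% of all probe sets were called lower and 0.0691% higher. The median was -0.33 for photosynthetic and 0.15 for rpl, rps and rpo genes. psbA had the lowest photosynthetic difference, -0.83 ± 0.35 (SE; adjusted p = 0.40), with all vte1 values below all WT values. Against vte1, vte2 had 1 gene lower: rps18 read 3718, 4096 and 2358 in vte1 and 1616, 1634 and 1248 in vte2, and the difference was -1.14 ± 0.27 (SE; adjusted p = 0.022). No rps18 value of vte2 reached one of vte1, and 0.986% of all probe sets were called lower. Leaving out replicate 1 or 2 of vte1, or any vte2 array, ended that call (adjusted p = 0.054 to 0.13), and without replicate 3 in every group 9 plastid genes were called, 7 lower and 2 higher, beside 6.41% lower and 7.59% higher among all probe sets. At an unadjusted p under 0.05 in limma, 9 of 68 plastid genes differed between the mutants, beside 16% of all probe sets. The rpl, rps and rpo genes, several of which share operons, had 18 of 19 differences below 0, with a median of -0.67. Over all probe sets tested, 8799 of 15922 differences were below 0, with a median of -0.05. Photosynthetic genes split 20 above and 23 below 0, with a median of -0.03 that was 0.04 under quantile normalization.

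**Figure D5:**
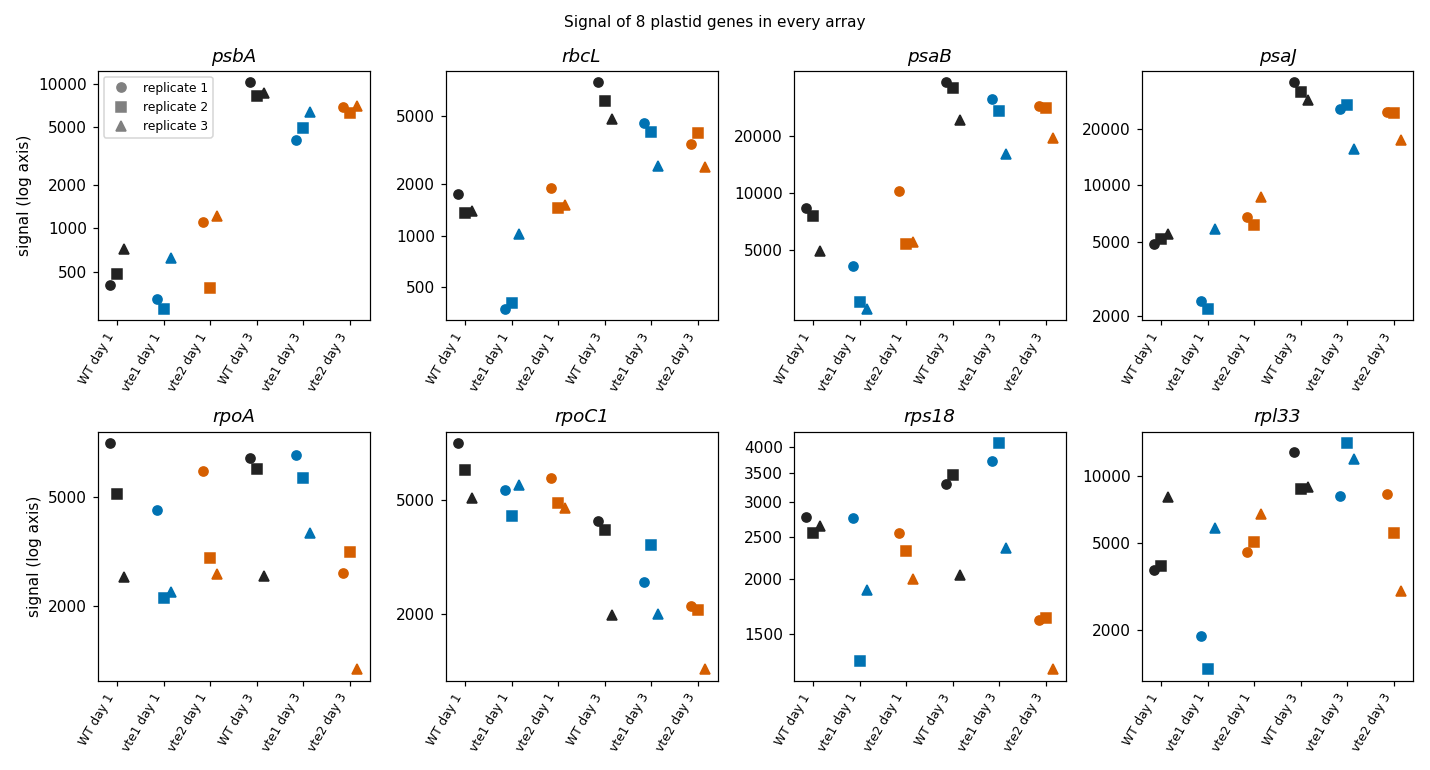
Signals of 8 plastid genes on log axes in every array of the 6 groups, with circles, squares and triangles for replicates 1, 2 and 3. psbA, rbcL, psaB and psaJ rise between the days in every genotype, rpoC1 falls in every genotype, rbcL is lowest in vte1 at day 1, and rps18 is lowest over its groups in vte2 at day 3 apart from 1 array of vte1 at day 1.

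Whether a mutant's distance from another genotype changed between the days was tested by interaction terms. For both mutants against WT, 0 plastid genes were called in limma (1 of 68 for vte1 and 4 for vte2 at an unadjusted p under 0.05, beside 12.4% and 6.7% of all probe sets), where 1.06% and 0.201% of all probe sets were called. The vte2 term was below 0 for 63 of 69 genes, with a median of -0.46 for photosynthetic and -0.44 for rpl, rps and rpo genes. Between the mutants, in a contrast added after the data had been seen, 4 genes were called, where 3.84% of all probe sets were called lower: rbcL at -1.68 ± 0.45 (SE; adjusted p = 0.035), rpl33 at -2.23 ± 0.62 (SE; adjusted p = 0.044), rps18 at -1.40 ± 0.38 (SE; adjusted p = 0.038) and rps3 at -1.36 ± 0.39 (SE; adjusted p = 0.0498). In each of them vte2 stood higher than vte1 at day 1 in the means and lower at day 3. rpl33, for a protein of the large ribosomal subunit, read 1879.9, 1333 and 5807 at day 1 and 8165, 14194 and 11969 at day 3 in vte1. In vte2 it read 4520.3, 5028 and 6721 at day 1 and 8298, 5538 and 3012 at day 3. The day 1 values overlapped and so did those of day 3, and replicate 3 of vte1 was far above replicates 1 and 2 at day 1.

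Most subunits of these complexes come from the nucleus, and few of their genes were named on the array: 7 of 35 listed nuclear subunits of the photosynthetic complexes and 9 of 39 listed nuclear genes for plastid ribosomal proteins. All 7 of the former rose between the days in every genotype, with medians of 3.01 (WT), 3.89 (vte1) and 1.82 (vte2). Among all probe sets tested 24.6% (WT), 30% (vte1) and 21.7% (vte2) rose. PSAE-1, a photosystem I subunit, read 5465, 6133 and 4651 at day 1 and 38633, 35254 and 60967 at day 3 in WT. At day 1 vte1 was lower than WT for 2 of the 7 (1.89% of all probe sets), PSAE-1 (-1.74 ± 0.30, SE; adjusted p = 0.0033) and PSAN (-1.57 ± 0.33, SE; adjusted p = 0.014), beside the rbcL result above. vte2 was higher than vte1 for 5 of 7 (4.13% of all), from 0.88 ± 0.24 (SE; adjusted p = 0.040) for PSBY to 2.30 ± 0.30 (SE; adjusted p = 1.3e-04) for PSAE-1. At day 3 vte2 was lower than WT for 2 (0.59% of all), NdhN (-1.06 ± 0.22, SE; adjusted p = 0.011) and PSBW (-0.77 ± 0.20, SE; adjusted p = 0.042). The nuclear genes for plastid ribosomal proteins rose in 5 of 9 cases in WT and in 6 of 9 in vte1. In vte2, 0 of 9 rose and 2 fell, where 18.5% of all probe sets fell. At day 3 they were lower in vte2 than in WT in 3 of 9 cases (AT1G64510, AT3G54210 and AT5G47190), with a median of -0.88 over the 9. Of 22 listed nuclear genes of plastid transcription 1 was measured, the polymerase gene AT5G15700, which was not called in any comparison. Of the listed markers of other tissues and stages, 2 of 5 of the root, 1 of 3 of greening, 1 of 4 oleosins and 0 of 8 seed storage proteins were measured. The oleosin OLEO3, which coats oil bodies of the seed, read 310.1, 305 and 159 in WT and 599.5, 566 and 299 in vte1 at day 1, with overlapping groups, and fell between the days in vte1 (-2.95 ± 0.44, SE; adjusted p = 1.6e-05) and vte2 (-1.37 ± 0.44, SE; adjusted p = 0.018). Its part in the plastid values was not tested.

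Replicate 3 stood apart from replicates 1 and 2 in a gene-specific way. It had the highest signal of its group in all 6 groups for 7 of the 69 genes (psaC, atpH, petG, ycf4, rpl22, ndhH and psbB) and the lowest in all 6 for 4 (petL, rps2, rps19 and ccsA). Over all probe sets tested the shares were 3.34% and 2.47%. The median absolute difference of replicate 3 from the mean of the others was 0.50 for plastid genes and 0.24 for all probe sets, on the log2 scale. Operon mates went opposite ways: petG was higher in replicate 3 by 1.52 on average and petL differed by -1.52, and atpH was higher by 1.21 where rps2 differed by -0.91. The GAPDH and actin ratios and the 25S rRNA signal named above moved with replicate 3 in every group, and their part in the plastid values was not tested.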

How the data were processed

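The data are signals of 18 ATH1 arrays hybridised with biotin-labelled cRNA made from 15 µg of total RNA, per the labels' protocols. The authors deposited 1 intensity per probe set, on a linear scale. The submitters' processing notes name MAS5, while neither its version, the scaling target nor a genome build was given. Trimmed of 2% at either end, the mean intensity of an array lay between 498 and 499.8. Arrays carry no counting depth, so their number limits the precision.

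Control probe sets (64) were left out, 22 was added before log2, and the 15922 of 22746 probe sets above the 30th percentile of mean log2 were tested; adding 22 understates changes of dim genes. A single limma 3.58.1 model held the 6 group means, with moderated variances that follow a trend in mean level (R 4.3.3, with version 1.17.8 of data.table); figures used Python 3.11.15 and matplotlib 3.10.9. Tests are two-sided with Benjamini-Hochberg adjustment within a comparison. For 1 probe set an exact permutation test of 3 against 3 cannot go below 0.1. Groups and replicate numbers come from the labels. Same-numbered arrays counted as paired where all 3 correlations of their deviations passed 0.1: 0.32 to 0.59 for vte1 and WT, 0.25 to 0.55 for vte2 and WT and 0.26 to 0.51 for vte2 and vte1 at day 1, and 0.15 to 0.37 for vte2 and WT at day 3.

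Plastid genes, their classes, operons and lists were chosen with earlier results of these data known. Named genes were, per comparison, all called plastid genes or, where over 12, the 6 highest and 6 lowest by change among those called, plus fixed index genes by value in the leading comparisons. Genes named outside this rule, such as psbC and the uncalled psbJ, petG, ndhH and ycf3 in WT, were chosen after their values were seen. Gene names come from the platform annotation and from RefSeq genes (assembly TAIR10.1). The alternatives were other pseudocounts, scalings and filters, a replicate block, arrays of the compared groups alone, and arrays left out. Genes of the mitochondrial genome are not analysed here.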

Additional observations from a re-analysis of the deposited data

Results flagged for a closer look

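The change between day 1 and day 3 of the difference of vte2 from vte1 passed the test for 4 of 68 plastid genes, beside 3.84% of all probe sets called lower, in a contrast added after the data had been seen. It was -1.68 for rbcL (difference 1.54 at day 1 and -0.15 at day 3), -2.23 for rpl33 (1.12 and -1.10), -1.40 for rps18 (0.26 and -1.14) and -1.36 for rps3 (0.42 and -0.94), on the log2 scale. The limma adjusted p was 0.035, 0.044, 0.038 and 0.0498. Of 23 alternatives, rbcL was called in 11, rpl33 in 9, rps18 in 11 and rps3 in 7. Over these alternatives the adjusted p ran from 2.7e-06 to 0.56 for rbcL, 6.0e-05 to 0.58 for rpl33, 9.8e-04 to 0.58 for rps18 and 8.4e-04 to 0.44 for rps3. The terms for either mutant against WT were not called for any of the 4.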

How the results depend on the processing

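The difference between the median changes of the 2 classes of gene moved by less than the replicate spread, a pooled SD of 0.31 per array, in all 159 alternatives. It was 1.51 in WT, 1.35 in vte1 and 1.49 in vte2 between the days. Blocks, the missing filter and the compared arrays alone could not move it, since it rests on group means. Nor could median centring, which shifts all genes of an array alike. Some class differences between genotypes were smaller than 0.31, so that even a turned sign would count as unmoved. Of the day calls, 27 of 46 in WT, 30 of 53 in vte1 and 12 of 35 in vte2 were kept in every one of 16 alternatives; of the genotype and interaction calls, none was. With arrays left out, plastid genes called numbered 30 to 54 (WT), 34 to 61 (vte1) and 15 to 53 (vte2) between the days; 0 to 18, 0 and 0 to 21 at day 1 for vte1 against WT, vte2 against WT and vte2 against vte1; 0 to 9, 0 to 10 and 0 to 9 at day 3 in that order; and 0 to 5, 0 to 2 and 0 to 16 for the interactions of vte1 and vte2 with WT and of the mutants. The highest of these counts came without replicate 3, and for the day changes the lowest came without replicate 1 or 2. Among all probe sets, too, more were called without replicate 3 than without replicate 1 or 2 in every comparison. For vte1 against WT at day 1 the count of plastid genes was 2 with quantile normalization, 2 with a replicate block, 5 with it within each day and 0 with the compared arrays alone. For vte2 against vte1 at day 1 it was 5, 9 and 0 for the last 3 of these. Calls among all 15922 probe sets grew with the blocks too. For vte1 against WT at day 1, 301 were lower in the main fit, 405 with the block and 606 with it within each day. For vte2 against vte1 at day 1, 657, 933 and 1196 were higher in that order. The within-day block gave 1 plastid gene for vte1 and 8 for vte2 against WT at day 3. The plain block gave 5 plastid genes for vte2, and 1.65% (within-day) and 0.886% (plain) of all probe sets were lower in vte2. For vte2 against vte1 at day 3 the count was 2 with a pseudocount of 64, 2 with quantile normalization and 2 with median centring. It was 5 and 9 with the blocks and 5 with the compared arrays alone. Among all probe sets, 157 were lower there in the main fit, 264 with the block and 514 with it within each day. For the interaction of the mutants the count of plastid genes was 2 with median centring and 2 with no filter. With the blocks it was 8 and 14, and with the compared arrays alone 0. The share of all probe sets called in that interaction is given here for the main fit alone. By the rule that all 3 correlations pass 0.1, replicate numbers paired no arrays between the days or with vte1 at day 3. The correlations there were -0.00092 to 0.13 and -0.0076 to 0.13. Replicate 3 still stood apart in all 6 groups, as described above. The plain block gave 47, 58 and 48 calls between the days in WT, vte1 and vte2. For vte2 against WT at day 3, the sign of the uncalled atpB (0.088 with quantile normalization), psaB (0.081 with quantile normalization), psbD (0.014 with quantile normalization and -0.53 to 0.58 with arrays left out) and rpoB (-0.10 to 0.28 with arrays left out) turned. For the WT day change, the sign of the uncalled matK (-0.15 with median centring and -0.16 to 0.48 with arrays left out), rpoA (-0.21 with median centring and -0.39 to 0.50 with arrays left out), rpoB (-1.04 to 0.34 with arrays left out), rps18 (-0.15 with median centring and -0.057 to 0.35 with arrays left out) and rps2 (-0.042 to 0.82 with arrays left out) turned. For the vte2 day change, the sign of the uncalled rpl33 (0.12 with quantile normalization and -0.51 to 0.51 with arrays left out) and rps2 (-0.36 to 0.19 with arrays left out) turned. The causes were not tested. Fewer arrays leave less power, and MAS5 signals carry no measure of saturation here. Since each gene had 1 probe set, the alternative of taking every probe set of a gene gave no other values. The within-day block, the mutants' interaction, leaving a number out for single genes and the replicate 3 description were added after seeing the data.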

Other observations

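The plastid genome carries a large repeat in inverted copies, and 6 genes (rps12, rpl2, rpl23, ycf2, ndhB and rps7) were measured by 7 probe sets that each name several plastid entries of 1 symbol. They were looked at after the other values were seen. Of the 7 probe sets, 3 rose between the days in WT, 5 in vte1 and 1 in vte2, beside 24.6%, 30% and 21.7% of all probe sets, and none fell; in the comparisons between genotypes 0 were called by limma. rpl23, for a protein of the large ribosomal subunit, read 2089, 1509 and 9869.8 at day 1 and 12834, 12669 and 9074 at day 3 in WT, a change of 1.85 ± 0.58 (SE; adjusted p = 0.013). rpl2, its neighbour in the same operon, read 12133, 10700.4 and 21502 and then 25404, 18317 and 13841, a change of 0.40 ± 0.35 (SE; adjusted p = 0.37). The 2 probe sets of rps12, whose message is joined from separate transcripts by trans-splicing, were not tested against each other: in WT 1 changed by 1.95 ± 0.50 (SE; adjusted p = 0.0032) and the other by 0.99 ± 0.56 (SE; adjusted p = 0.16). In vte1 the changes were 1.67 ± 0.50 (SE; adjusted p = 0.0082) and 1.44 ± 0.56 (SE; adjusted p = 0.038). ycf2, for a large protein of the plastid envelope, changed by 1.00 ± 0.35 (SE; adjusted p = 0.025) in WT and was not called in either mutant; the interaction terms were called for none of the 7 probe sets. ndhB, the one photosynthetic gene among them, was not called in any genotype, at 0.71 ± 0.61 (SE; adjusted p = 0.36) in WT.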
